A study of Mus musculus with 10 samples.

Results

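The miRNAs described here are 9 mature miRNAs made mainly or strongly by white blood cells: miR-142a-3p, miR-142a-5p, miR-223-3p, miR-223-5p, miR-150-5p, miR-155-5p, miR-146a-5p, miR-146b-5p and miR-342-3p. They were taken by name from the tables, and all 9 are listed among the 679 miRNAs of the brown adipose tissue (BAT) table and among the 436 of the plasma table. The tables together list 721 miRNAs in 10 libraries. The series sequenced miRNAs of small extracellular vesicles, membrane-bound particles that cells release, from C57BL/6J mice in 4 groups: Exe BAT (3 libraries), Sed BAT (3), Exe plasma (2) and Sed plasma (2). Exe and Sed in the titles are read as exercised and sedentary, since the series compares vesicles before and after exercise. Every sample carries the same exercise entry in its labels, Sed samples included: 90 min sessions, 2 a day, over 4 weeks. The labels give no age, sex or pooling, do not say whether libraries came from separate animals, and name no sorting of vesicles by cell of origin. P-values therefore measure only how far these libraries differ among themselves, possibly for technical reasons, and fewer vesicles from a cell type cannot be told apart from less RNA per vesicle.

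Mature miRNAs guide Argonaute proteins to messenger RNAs through their seed, bases 2 to 8, and lower the output of those messages. White blood cells carry a characteristic set: miR-142 is present throughout the blood lineages, miR-223 marks neutrophils and other myeloid cells and is also plentiful in platelets, and miR-150 marks mature lymphocytes. Both miR-146a and miR-155 are induced by NF-kB signalling, miR-146a restraining it through TRAF6 and IRAK1 and miR-155 promoting inflammatory responses. Brown fat holds resident macrophages and lymphocytes, and plasma vesicles come in large part from blood cells.

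The sequences are shown because a seed defines what each miRNA can pair with, and because the arms of miR-142 and the miR-146 pair are compared below. Of the 9 miRNAs, 8 had a mature sequence in RefSeq (GRCm38.p6); miR-150-5p is given by name. Capitals mark the seed.
miR-142a-5p: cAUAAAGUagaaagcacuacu
miR-142a-3p: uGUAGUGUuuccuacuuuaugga
miR-223-5p: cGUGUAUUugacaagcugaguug
miR-223-3p: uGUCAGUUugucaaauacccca
miR-155-5p: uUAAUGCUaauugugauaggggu
miR-146a-5p: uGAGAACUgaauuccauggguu
miR-146b-5p: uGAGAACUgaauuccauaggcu
miR-342-3p: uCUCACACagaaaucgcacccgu

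Only miR-146a-5p and miR-146b-5p share a seed. They differ at G18A and U21C (miR-146a-5p first, counted from the 5′ end), so reads cut short at the 3′ end could be assigned to either, and their split is uncertain. No other miRNA listed in the tables carries any of these seeds. Both miR-142a arms come from one hairpin of 64 bases at chr11:87756864-87756927 on the plus strand, within an intron of the non-coding gene Mir142hg in GENCODE M21 (GRCm38). The hairpin is printed with both arms in capitals, the 5p arm first.
Mir142 hairpin: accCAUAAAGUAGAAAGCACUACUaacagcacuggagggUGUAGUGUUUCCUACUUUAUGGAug

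The separately listed miR-142b lies on the opposite strand of the same place and had 2 reads over the 6 BAT libraries. The arms of miR-223 lie on the X chromosome at 96242842 to 96242864 (5p) and 96242884 to 96242905 (3p), in an exon of F630028O10Rik, and miR-155-5p lies on chromosome 16 at 84714143 to 84714165, in an exon of its host transcript Mir155hg. On chromosome 12, miR-342-3p (108658680 to 108658702) lies in an intron of Evl, a regulator of actin filaments. In an intron of Mfsd13a on chromosome 19 lies miR-146b-5p (46342790 to 46342811), and miR-146a-5p, on chromosome 11 (43374435 to 43374456), overlaps no other annotated gene.

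The BAT libraries held between 104064 and 172279 miRNA reads and the plasma libraries between 1209116 and 1798169. All 9 miRNAs had reads in every BAT library, whereas 9 and 8 had reads in the Exe plasma libraries and 4 and 6 in the Sed plasma libraries. One BAT library stood apart from the rest: in Sed BAT replicate 2 the brown fat miRNA miR-378a-3p had 3804 reads, against 24801 to 35733 in the other 5. In plasma, miR-451a, which red cells carry in great amounts, made up 11.1% and 13.1% of the Exe reads, against 69.8% and 52.8% of the Sed reads. CPM below are counts per 1000000 reads on the trimmed mean of M-values (TMM) scale of each table, and a call is an adjusted p under 0.05 in edgeR's quasi-likelihood test over all tested miRNAs of the fit.

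Together the 9 miRNAs made up 1.35%, 1.02% and 0.942% of the miRNA reads in the Exe BAT libraries and 0.931%, 1.28% and 1.003% in the Sed BAT libraries, so the groups overlapped. In plasma they made up 3.64% and 3.67% in the Exe libraries (exact 95% binomial intervals 3.60% to 3.67% and 3.64% to 3.70%), against 1.38% and 1.10% in the Sed libraries (1.36% to 1.40% and 1.09% to 1.12%). These intervals, and the limits given below for 0 reads, cover counting error only, since copies made by PCR are not independent molecules. The plasma shares are of all miRNA reads, of which miR-451a made up 11.1% and 13.1% in Exe and 69.8% and 52.8% in Sed. On the TMM scale the 9 summed to 24511 and 34696 CPM in Exe plasma and 21587 and 11236 CPM in Sed plasma, so the groups lay closer. The makeup differed more than the sum did. In BAT vesicles miR-150-5p supplied 73.6%, 63.3% and 65.5% of the reads of the 9 in Exe and 61.3%, 59.1% and 64.8% in Sed. In plasma vesicles it supplied 52.3% and 50.5% in Exe and 15.2% and 4.85% in Sed, where miR-146a-5p took 84.7% and 85.6%.

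**Figure D1:**
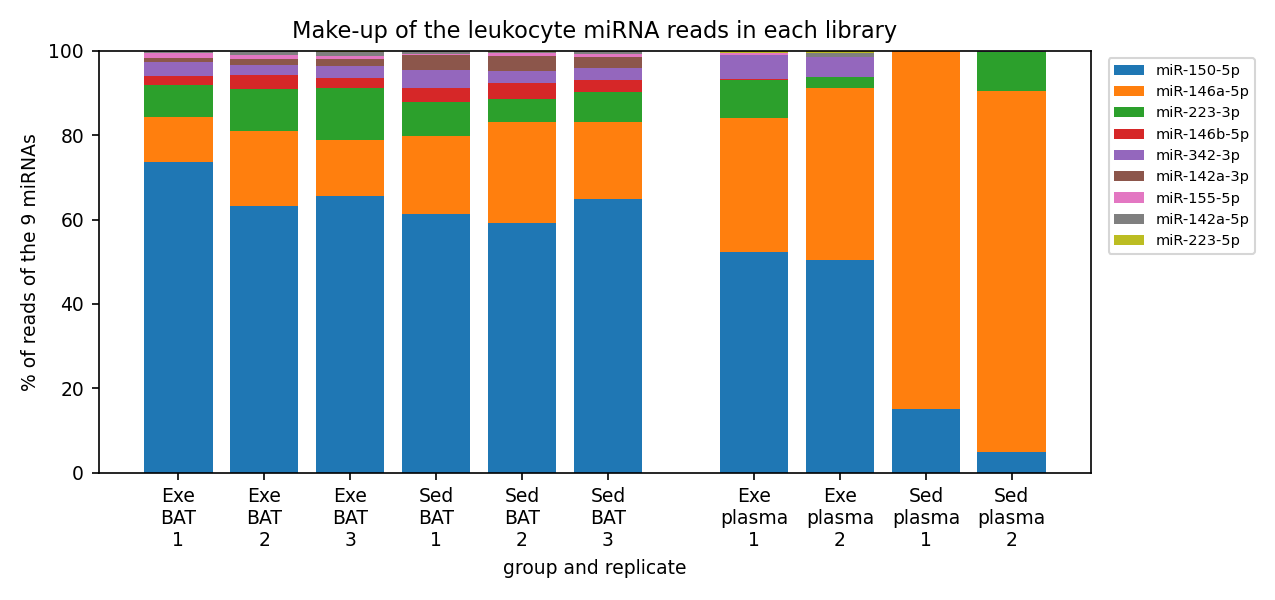
Share of each miRNA in the summed reads of the 9 miRNAs, in % of those reads, in each of the 10 libraries. The 6 BAT libraries are led by miR-150-5p, as are both Exe plasma libraries, while both Sed plasma libraries are led by miR-146a-5p.

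The first comparison set Exe BAT against Sed BAT vesicles. The 3p arm of miR-142a, a product of the blood-lineage hairpin shown above, fell in Exe, and it was the only one of 8 tested members called. It had 13, 21 and 29 reads in the Exe libraries and 54, 48 and 32 reads in the Sed libraries. On the CPM scale these were 114, 137 and 183 CPM in Exe and 346, 362 and 292 CPM in Sed, so every Exe library lay below every Sed library. The means were 145 ± 35.5 CPM in Exe and 333 ± 36.4 CPM in Sed (SD, n = 3 each). The log2 fold change was -1.19 with an SE of 0.28 (adjusted p = 0.0154). Over the whole table, 45 of 199 tested miRNAs were called, or 22.6%, and 13.1% were called lower in Exe, so 1 call among 8 members is not above the background. The call was lost without Exe BAT replicate 1 (-0.99, adjusted p = 0.0771), replicate 2 (-1.13, adjusted p = 0.0520) or replicate 3 (-1.29, adjusted p = 0.0526), with the library totals implied by the deposited RPM (-0.97, adjusted p = 0.0901) and with the replicate number as a block (-1.21, adjusted p = 0.0532). It was kept without Sed BAT replicate 2, the library that stood apart (-1.05, adjusted p = 0.0243), and all 14 alternatives in which it was tested had values below 0.

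The other arm of the same hairpin did not show that fall. In reads, miR-142a-5p had 7, 14 and 16 in Exe BAT and 10, 3 and 9 in Sed BAT, and in CPM 61.2, 91.1 and 101 in Exe and 64.1, 22.6 and 82.2 in Sed. The groups overlapped, and the log2 fold change was 0.62 ± 0.47 (adjusted p = 0.349). Set within each library, where no scaling enters, the 5p arm supplied 35%, 40% and 35.6% of the reads of both arms in Exe BAT. In Sed BAT it supplied 15.6%, 5.88% and 22.0%. The groups did not overlap, although the exact 95% intervals of single libraries were wide, 21.9% to 51.2% in Exe BAT replicate 3 and 10.6% to 37.6% in Sed BAT replicate 3. The log2 ratio of 5p to 3p reads (1 read added to each) averaged -0.73 ± 0.15 in Exe and -2.55 ± 0.97 in Sed, a difference of 1.83 (exact permutation p = 0.1, two-sided, n = 3 each, the smallest p this design allows).

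For reference, chosen after these values were seen, the same ratio was computed for all 41 hairpins with a mean of at least 5 BAT reads in each arm. In 24.4% of them the Exe and Sed BAT libraries did not overlap, and the median size of the difference was 0.64. The difference of miR-142a ranked 3 of 41 by size. For the miR-223 hairpin the 5p arm was rare throughout, with 2, 1 and 4 reads in Exe BAT and 1, 3 and 1 in Sed BAT, too few for the filter. Its log2 ratio to miR-223-3p averaged -5.64 ± 0.58 in Exe and -5.19 ± 0.90 in Sed (exact permutation p = 0.6, two-sided, n = 3 each), and that difference changed sign without Sed BAT replicate 2.

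Opposite in direction to miR-142a-3p, and not called, was miR-223-3p, the main arm of the myeloid hairpin, which represses the inflammasome component NLRP3. It had 117, 158 and 198 reads in Exe BAT and 125, 73 and 83 in Sed BAT. These were 1023, 1028 and 1251 CPM in Exe and 801, 550 and 758 CPM in Sed, so every Exe library lay above every Sed library. The log2 fold change was 0.65 ± 0.25 (adjusted p = 0.0888). It passed the threshold with upper-quartile factors (0.81, adjusted p = 0.0496) and with only miRNAs of 50 or more reads on average (0.79, adjusted p = 0.0368), and its value was above 0 in all 15 alternatives.

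The reads of miR-142a-3p and miR-223-3p were also set against each other within each library. Of the reads of miR-142a-3p and miR-223-3p, miR-142a-3p supplied 10%, 11.7% and 12.8% in Exe and 30.2%, 39.7% and 27.8% in Sed. The exact 95% intervals of the Exe libraries ended at 16.5%, 17.4% and 17.8%, and those of the Sed libraries began at 23.5%, 30.9% and 19.9%, so none of the Exe intervals reached a Sed interval. The log2 ratio averaged -2.89 ± 0.18 in Exe and -1.05 ± 0.40 in Sed, a difference of -1.84 (exact permutation p = 0.1, two-sided, n = 3 each, the smallest possible), and it lay between -1.99 and -1.61 with any one library left out. For reference, added after these values were seen, 43.2% of the ratios between any 2 of the 199 tested miRNAs, and 68.2% of those of miR-142a-3p to each of the other 198, had groups that did not overlap.

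**Figure D2:**
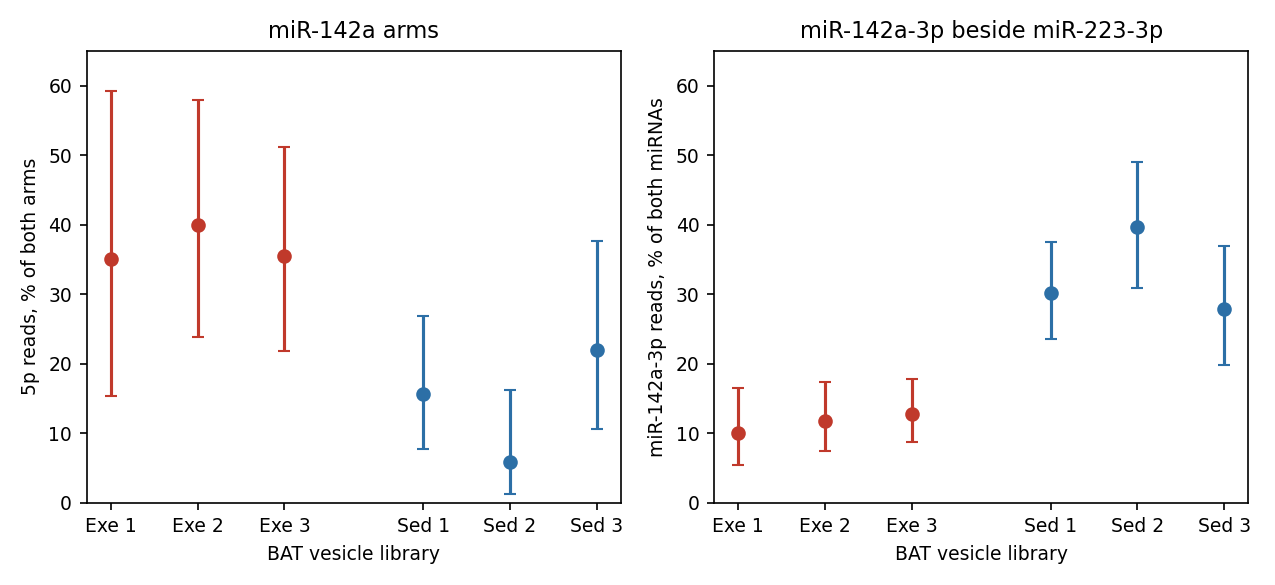
Left, miR-142a-5p reads as % of both miR-142a arms; right, miR-142a-3p reads as % of miR-142a-3p and miR-223-3p together, in the 6 BAT vesicle libraries, with exact 95% binomial intervals as bars. The Exe points lie between 35% and 40% on the left and between 10% and 12.8% on the right, apart from the Sed points on both sides.

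Members tied to NF-kB signalling, miR-155-5p and miR-146a-5p, were not called in BAT vesicles and did not go one way. For miR-155-5p, which acts on SOCS1 and PU.1, there were 19, 17 and 11 reads in Exe BAT and 6, 11 and 6 in Sed BAT, or 166, 111 and 69.5 CPM in Exe and 38.5, 82.9 and 54.8 CPM in Sed. The lowest Exe library lay below the highest Sed library, which was Sed BAT replicate 2. The log2 fold change was 0.95 ± 0.45 (adjusted p = 0.149), and without that library it was 1.36 (adjusted p = 0.0390). For miR-146a-5p the values were 1495, 1875 and 1378 CPM in Exe and 1878, 2412 and 1946 CPM in Sed. Every Exe library lay below every Sed library, though Exe BAT replicate 2 and Sed BAT replicate 1 were almost level, with a log2 fold change of -0.39 ± 0.24 (adjusted p = 0.238). Its seed partner miR-146b-5p had 306, 371 and 259 CPM in Exe and 346, 384 and 311 CPM in Sed, with overlapping groups and a log2 fold change of -0.15 ± 0.25 (adjusted p = 0.692).

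Within the miR-146 pair, there were 4.89, 5.05 and 5.32 reads of miR-146a-5p for each read of miR-146b-5p in Exe BAT and 5.43, 6.27 and 6.26 in Sed BAT. The groups did not overlap, but the log2 difference was small, -0.23 (exact permutation p = 0.1, two-sided, n = 3 each, the smallest possible).

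Lymphocyte members were not called. The most abundant of the 9 in BAT vesicles was miR-150-5p, which represses the transcription factor MYB in developing lymphocytes. It had 1160, 1023 and 1063 reads in Exe BAT and 967, 790 and 754 in Sed BAT. In CPM these were 10143, 6659 and 6718 in Exe and 6198, 5954 and 6888 in Sed. One Exe library was high and the other Exe libraries lay within the range of Sed, and the log2 fold change was 0.30 ± 0.24 (adjusted p = 0.368). For miR-342-3p, expressed in lymphoid and myeloid cells with its host Evl, the values were 463, 247 and 272 CPM in Exe and 429, 286 and 292 CPM in Sed, with a log2 fold change of -0.06 ± 0.32 (adjusted p = 0.893) whose sign changed under 6 of 14 alternatives.

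In the order of mean Exe BAT level, miR-150-5p (7840 ± 1994 CPM) stood above miR-146a-5p (1583 ± 260 CPM) and miR-223-3p (1101 ± 130 CPM). Then came miR-342-3p (328 ± 118 CPM) and miR-146b-5p (312 ± 56.2 CPM), whose ranges overlapped, then miR-142a-3p (145 ± 35.5 CPM), miR-155-5p (115 ± 48.5 CPM) and miR-142a-5p (84.5 ± 20.8 CPM), whose neighbours in the order overlapped, and miR-223-5p (16.4 ± 9.43 CPM). In Sed BAT the order of means was the same for the first 3, and miR-146b-5p (347 ± 36.9 CPM), miR-342-3p (336 ± 80.9 CPM) and miR-142a-3p (333 ± 36.4 CPM) could not be ranked, since their ranges overlapped. Levels of different miRNAs are set side by side in CPM, which counts reads and not molecules. The members with a sequence are 21 to 23 bases long. How evenly the library chemistry captured each was not tested.

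**Figure D3:**
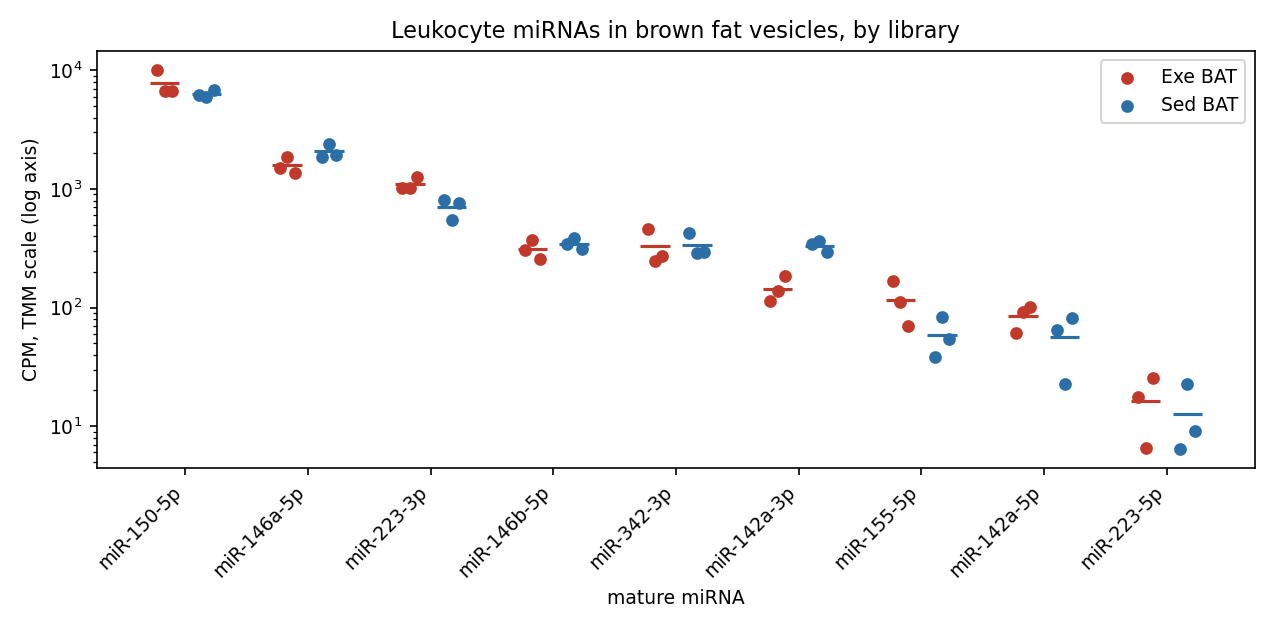
CPM on the TMM scale (log axis) of the 9 miRNAs in each of the 3 Exe BAT and 3 Sed BAT vesicle libraries, with the group mean as a line. The groups lie apart for miR-142a-3p (lower in Exe), miR-223-3p (higher in Exe) and narrowly miR-146a-5p (lower in Exe).

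Groups that did not overlap in CPM were thus seen for 3 of 8 tested members, against 44.2% of all 199 tested miRNAs, so the count is no larger than the background. The median log2 fold change of the 8 tested members was 0.12, beside -0.06 over all tested miRNAs. Markers of other cells were summed in the same libraries. The summed red cell miRNAs (5 of 5 listed) ranged from 35211 to 77705 CPM in Exe BAT and from 30374 to 66925 in Sed BAT. The summed endothelial and platelet miRNAs (3 of 3) ranged from 60612 to 95942 CPM in Exe and from 75424 to 90452 in Sed. Both overlapped between groups and none of their members was called, with median log2 fold changes of -0.63 over the 4 tested red cell miRNAs and 0.32 over the other list. The summed adipocyte miRNAs (5 of 5) ranged from 246152 to 303679 CPM in Exe and from 51335 to 242161 in Sed, which did not overlap. Of these 5, miR-193b-3p (1.17, adjusted p = 0.0167) and miR-455-3p (1.57, adjusted p = 0.0306) were called higher, beside 9.55% of all tested miRNAs. The other 3 were not called, namely miR-378a-3p (0.73, adjusted p = 0.414), which makes up most of the sum and whose groups overlapped, miR-365-3p (-1.08, adjusted p = 0.0547) and miR-455-5p (-0.12, adjusted p = 0.786). The muscle miRNAs summed to between 26506 and 35821 CPM in Exe and between 31412 and 42893 CPM in Sed, and 1 of 3, miR-1a-3p, was called lower (-1.47, adjusted p = 0.0107). Of the liver miRNAs, which summed to between 1005 and 2020 CPM in Exe and between 784 and 1041 CPM in Sed, 1 of 2, miR-122-5p, was called higher (2.62, adjusted p = 0.0493). It had 88, 30 and 12 reads in Exe and 13, 5 and 4 in Sed. In CPM these were 769, 195 and 75.8 in Exe and 83.3, 37.7 and 36.5 in Sed, so the groups overlapped. No defining marker of these lists was at 0 reads in either BAT group, and the part of these cells in the leukocyte values was not tested.

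By the mean absolute difference of log2 CPM (1 added) around the mean of the 6 BAT libraries, the profiles most like that of miR-223-3p, out of 106 miRNAs averaging 50 reads or more, were miR-151-5p (0.11), miR-23b-3p (0.18) and miR-423-3p (0.20). Those most like miR-150-5p were miR-192-5p (0.10), miR-191-5p (0.16) and miR-423-3p (0.16), and those most like miR-146a-5p were let-7d-5p (0.12), let-7g-5p (0.13) and miR-15a-5p (0.13). The median distance to all 106 was 0.48, 0.44 and 0.39 in that order of members.

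In a wider set of leukocyte miRNAs in BAT vesicles, 0 of 3 tested of the 6 lymphocyte miRNAs (the miR-181 family) and 0 of 1 tested of the 6 myeloid miRNAs were called. Of the 5 partner arms of the members, 2 are listed in the BAT table and none passed the filter. The nearest was miR-181b-5p, with 254, 280 and 310 CPM in Exe and 455, 520 and 411 CPM in Sed (-0.71 ± 0.24, adjusted p = 0.0557), while miR-181a-5p, which tunes T cell receptor signalling and is far more abundant, had 6523, 5663 and 6744 CPM in Exe and 6512, 5005 and 5792 CPM in Sed (0.13 ± 0.21, adjusted p = 0.692). The third tested of the family, miR-181c-5p, was at -0.01 ± 0.28 (adjusted p = 0.979). Of the myeloid list, miR-652-3p was at -0.14 ± 0.37 (adjusted p = 0.786).

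The second comparison set Exe plasma against Sed plasma vesicles, with 2 libraries a group. Of the tested members, miR-150-5p, miR-342-3p and miR-223-5p were far higher in both Exe libraries, while the groups overlapped for miR-223-3p, the main myeloid arm. No member was called by edgeR, which called 0 of 182 tested miRNAs, or 0%. At an unadjusted p under 0.05 it had 60 miRNAs, 2 of them members. DESeq2 called 64 of 383 (16.7%), 2 of them members, and limma-voom 35 of 182 (19.2%), 1 of them a member. Each of these member calls was higher in Exe.

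The values of miR-150-5p were 23000 and 32729 reads in Exe plasma and 2827 and 961 in Sed plasma, or 12822 and 17513 CPM in Exe and 3286 and 544 CPM in Sed. Both Exe libraries lay above both Sed libraries, and the log2 fold change was 2.99 ± 1.04 (SE, n = 2 per group, edgeR adjusted p = 0.115). It passed the threshold with library size alone (3.84, adjusted p = 0.0370) and with no filter (3.11, adjusted p = 0.0145). Without Sed plasma replicate 1, which left 1 Sed library, the value was 4.89. All 13 alternatives gave values above 0, from 2.20 to 4.89.

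For miR-342-3p there were 2536 and 2975 reads in Exe plasma and 0 and 45 in Sed plasma, where 0 reads in Sed plasma replicate 1 allow up to 2.24 CPM before TMM scaling. In CPM the Exe libraries were at 1414 and 1592 and Sed plasma replicate 2 at 25.5. The log2 fold change was 6.85 ± 2.53 (edgeR adjusted p = 0.122), and it was called by DESeq2 (6.88, adjusted p = 0.0406) and limma-voom (9.33, adjusted p = 0.0419). Its values were above 0 in all 13 alternatives. Without Sed plasma replicate 2 it was at 14.1, but the 1 Sed library left had 0 reads, so that size depends on the prior count.

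The myeloid arms differed between the 2 Sed libraries. In Exe plasma miR-223-3p had 3998 and 1666 reads, against 0 and 1818 in Sed plasma, so the groups overlapped, and the log2 fold change was 1.60 ± 2.56 (edgeR adjusted p = 0.670). That value was 14.2 without Sed plasma replicate 2, where the 1 Sed library left had 0 reads and the size depends on the prior count. It was 0.66 without Sed plasma replicate 1, so 1 library decides it. The passenger arm miR-223-5p had 207 and 417 reads in Exe plasma and 4 and 0 in Sed plasma, with a log2 fold change of 6.21 ± 2.77 (edgeR adjusted p = 0.179). Without Sed plasma replicate 1 the value was 11.3, again with 0 reads in the 1 Sed library left. As a share of both miR-223 arms miR-223-5p took 4.92% and 20.02% in the Exe plasma libraries (exact 95% intervals 4.29% to 5.62% and 18.3% to 21.8%). In Sed plasma replicate 2 it took 0 of 1818 reads.

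Of the members tied to NF-kB signalling, only miR-146a-5p passed the plasma filter. In plasma miR-146a-5p had 13954 and 26464 reads in Exe and 15736 and 16984 in Sed, or 7779 and 14161 CPM in Exe and 18290 and 9622 CPM in Sed. The groups overlapped, and the log2 fold change was -0.35 ± 0.70 (edgeR adjusted p = 0.733), with values on both sides of 0 among the alternatives. Against it within each library, 1.65 and 1.24 reads of miR-150-5p were found for each read of miR-146a-5p in Exe plasma and 0.180 and 0.0566 in Sed plasma, a ratio chosen after its values were seen and free of the scaling that miR-451a can shift. In BAT the same ratio was 6.78, 3.55 and 4.88 in Exe and 3.30, 2.47 and 3.54 in Sed.

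The remaining members did not pass the plasma filter. In Exe plasma miR-146b-5p had 31 and 5 reads, against 0 and 0 in Sed plasma, at least 8.60-fold higher in Exe, with the Sed group set at a floor of 3 counts in all. For miR-155-5p there were 241 and 1 reads in Exe plasma and 6 and 0 in Sed plasma. With miR-142a-5p the reads were 1 and 583 in Exe plasma and 0 and 2 in Sed plasma, a ratio of 209 (exact 95% counting interval 57.7 to 1732) that rests on Exe plasma replicate 2. DESeq2, run without that filter, called it (7.97, adjusted p = 0.0406). In edgeR without Exe plasma replicate 1, which left 1 Exe library, its log2 fold change was 8.93. With miR-142a-3p the reads were 1 and 0 in Exe plasma and 0 and 24 in Sed plasma, a ratio of 33.5 (interval 5.46 to 1377) with Exe the lower, which rests on Sed plasma replicate 2. No plasma library therefore held both arms of miR-142a in numbers: Exe plasma replicate 2 had 583 reads of the 5p arm and 0 of the 3p arm, and Sed plasma replicate 2 had 2 and 24.

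**Figure D4:**
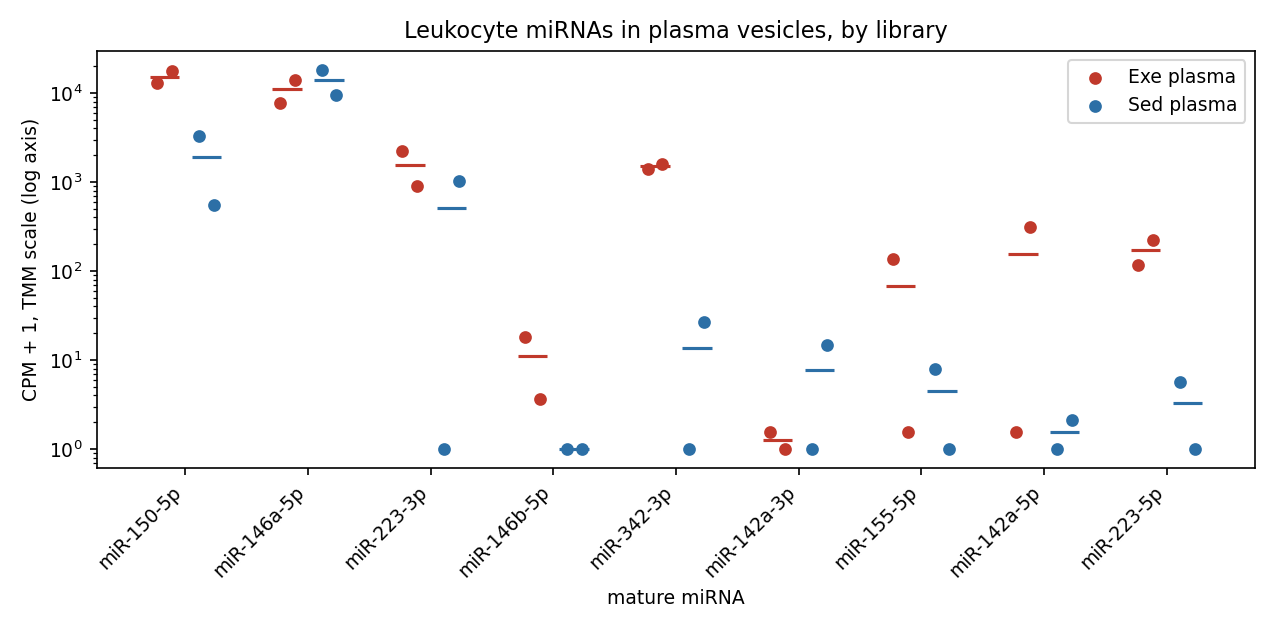
CPM + 1 on the TMM scale (log axis) of the 9 miRNAs in each of the 2 Exe plasma and 2 Sed plasma vesicle libraries, with the group mean as a line. A point at 1 stands for 0 reads. Exe lies above Sed in all libraries for miR-150-5p, miR-342-3p, miR-223-5p and miR-146b-5p, the last with at most 31 reads.

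Among the 5 tested members 3 had groups that did not overlap, all higher in Exe, beside 59.3% of all 182 tested miRNAs. Of the 3 members, miR-342-3p (0 and 45 reads in Sed plasma) and miR-223-5p (4 and 0) passed the filter through the Exe libraries, where they are high. This count and the median of the members are therefore a description. The median log2 fold change of the 5 was 2.99, against 0.32 over all tested miRNAs. That background moved with the scaling: the median over all miRNAs shifted by -0.91 with upper-quartile factors and by 0.63 with no TMM factors. The summed red cell miRNAs, mostly miR-451a (-3.03, edgeR adjusted p = 0.0899), were at 84268 and 132194 CPM in Exe plasma and 537625 CPM or more in Sed plasma. The list did not go one way, with a median log2 fold change of 0.57 over 4 tested. Both miR-486a-5p and miR-486b-5p were higher in Exe (2.72 each, adjusted p = 0.279), and miR-144-3p was at -1.57 (adjusted p = 0.444). With the red cell miRNAs left out, miR-150-5p was at 3.30 (adjusted p = 0.0987) and miR-342-3p at 7.32 (adjusted p = 0.1001). The summed endothelial and platelet miRNAs were at 31551 and 37080 CPM in Exe plasma and 37508 and 43863 CPM in Sed plasma.

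A second integer accompanies every plasma read count and never exceeds it; how it was made is not stated. Its total over miRNAs was 71.0% and 61.1% of the reads in the Exe plasma libraries, against 30.2% and 4.67% in the Sed plasma libraries. In Sed plasma, miR-150-5p and miR-146a-5p followed this low share in replicate 2 but not in replicate 1. For miR-150-5p the second value was 19566 and 26090 in Exe plasma. In Sed plasma it was 2352 beside 2827 reads in replicate 1 and 93 beside 961 reads in replicate 2. For miR-146a-5p it was 11819 beside 15736 reads in Sed plasma replicate 1 and 691 beside 16984 reads in replicate 2. The value of miR-451a in Sed plasma replicate 1 was 122632 beside 936594 reads. For miR-223-3p the second value was 3855 and 1648 in Exe plasma and 0 and 95 in Sed plasma. Tested on this column, miR-150-5p was at 2.66 (adjusted p = 0.0639) and miR-342-3p at 4.27 (adjusted p = 0.347), and edgeR called 11 of 164 miRNAs, none a member.

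**Figure D5:**
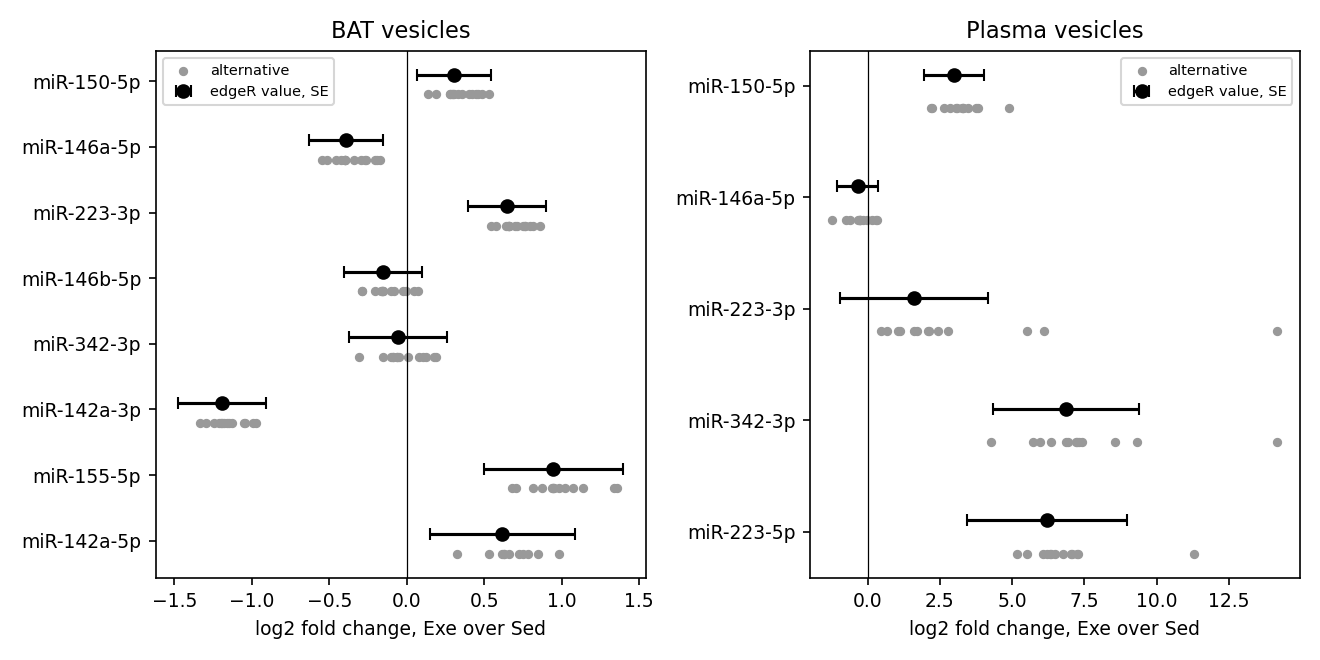
Log2 fold change, Exe over Sed, of the members tested in BAT vesicles (left) and plasma vesicles (right), each in its own edgeR fit; black points give the value with its SE and grey points the alternatives. In BAT the values of miR-142a-3p and miR-146a-5p lie below 0 throughout. Those of miR-223-3p, miR-150-5p, miR-155-5p and miR-142a-5p lie above 0 throughout, and those of miR-146b-5p and miR-342-3p on both sides. In plasma the values of all tested members but miR-146a-5p lie above 0 throughout.

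In the wider set, plasma vesicles had 0 calls among 3 tested lymphocyte and 2 tested myeloid miRNAs. There were 4472 and 5865 reads of miR-181a-5p in Exe plasma and 612 and 1922 in Sed plasma (1.65 ± 1.05, edgeR adjusted p = 0.320), whereas miR-181b-5p had 22 and 3 in Exe plasma and 112 and 199 in Sed plasma (-4.12 ± 2.23, edgeR adjusted p = 0.259). For miR-181c-5p there were 454 and 2 reads in Exe plasma and 5 and 60 in Sed plasma. Its groups overlapped (2.66 ± 2.68, edgeR adjusted p = 0.518). In reads, miR-652-3p had 6894 and 7123 in Exe plasma and 5866 and 5460 in Sed plasma. In CPM these were 3843 and 3812 in Exe and 6818 and 3093 in Sed, so the groups overlapped. The log2 fold change of miR-652-3p was -0.37 ± 0.83 (edgeR adjusted p = 0.767). The other tested myeloid miRNA, miR-132-3p, was at 23.4 and 210 CPM in Exe plasma and 1.16 and 0 CPM in Sed plasma. Both Exe libraries lay above both Sed libraries, which had 1 and 0 reads (7.66 ± 3.07, edgeR adjusted p = 0.145).

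Whether the exercise effect differed between vesicle sources was tested in a joint fit of the 4 groups over miRNAs listed in both tables. Of the 9 members 4 were called, all with a lower value in BAT than in plasma, beside 29.1% of 234 tested miRNAs in either direction. Only 4 of the 9 had passed the filter in both tables on their own, and 2 of these, miR-342-3p and miR-150-5p, are among the called. Of these 2, miR-342-3p passed the plasma filter through Exe plasma, where it is high, so its value is a description. The difference, effect in BAT minus effect in plasma on the log2 scale, was -6.12 ± 1.84 for miR-342-3p (edgeR adjusted p = 0.0349) and -2.49 ± 0.78 for miR-150-5p (adjusted p = 0.0368). The other two entered the joint fit through the groups where they are high, so their values are given as a description. They were -5.68 ± 1.92 for miR-223-5p (adjusted p = 0.0472), which had 1 to 4 reads in each BAT library, and -6.56 ± 1.96 for miR-146b-5p (adjusted p = 0.0356), whose size depends on the prior count because Sed plasma had 0 reads. With a spread fitted for each source 1 member was called. The calls also depend on single libraries: 0 members were called without Exe BAT replicate 2, Exe BAT replicate 3, Sed BAT replicate 1 or Sed BAT replicate 3, 1 without Exe BAT replicate 1 or Sed BAT replicate 2, 2 without Exe plasma replicate 2, 3 without Sed plasma replicate 2, 4 without Exe plasma replicate 1 and 5 without Sed plasma replicate 1. The differences of these 4 members stayed below 0 each time. That of miR-342-3p was -13.3 without Sed plasma replicate 2, where the 1 Sed plasma library left had 0 reads and the size depends on the prior count.

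For miR-142a-3p, called lower in Exe BAT, the difference was 3.55 ± 1.999 (adjusted p = 0.186), with a sign that changed without Sed plasma replicate 2. For miR-146a-5p it was 0.35 ± 0.54 (adjusted p = 0.616).

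Levels in the 2 sources can be set side by side only with care: vesicle source and deposited table go together and cannot be told apart. In the joint fit miR-146a-5p was lower in BAT than in plasma vesicles, by a log2 value of -4.55 ± 0.41 in Exe (adjusted p = 1.94e-05) and -4.90 ± 0.41 in Sed (adjusted p = 1.75e-05), and it was called in all 18 alternatives of each comparison. Its seed partner had the opposite sign. In the BAT libraries miR-146b-5p had 133 reads in Exe and 139 in Sed, from far shallower libraries than the plasma totals of 36 reads in Exe and 0 in Sed. The log2 value in Exe was 2.84 ± 1.15 (adjusted p = 0.0511), and in Sed miR-146b-5p was at least 61.3-fold higher in BAT than in plasma, by the same floor of 3 counts for the plasma group. It passed the joint filter through BAT, where it is high, and not the plasma filter, so these values are a description. Of the miR-146 reads, miR-146b-5p was thus a minor part in plasma and a regular part in BAT, where miR-146a-5p took between 83.0% and 86.3% in all 6 libraries, against 99.8% in Exe plasma replicate 1 and more in the other 3 plasma libraries.

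In Exe libraries miR-142a-3p was higher in BAT than in plasma, with 63 reads over 3 BAT libraries against 1 read over 2 plasma libraries, a ratio of 160 (exact 95% counting interval 27.6 to 6405). It passed the joint filter through BAT, where it is high, and not the plasma filter, so this is a description. In Sed libraries it was at 2.99 ± 1.47 (adjusted p = 0.132). Lower in Exe BAT than in Exe plasma were miR-150-5p (-2.75 ± 0.55, adjusted p = 0.00204) and miR-342-3p (-4.03 ± 1.24, adjusted p = 0.0160). The call of miR-150-5p was lost in 2 of 18 alternatives, with library size alone (-1.30, adjusted p = 0.0571) and with a 50 read minimum on the mean (-1.54, adjusted p = 0.0522). The call of miR-342-3p was lost in 5 of 18, under the same alternatives (-2.57, adjusted p = 0.0793, and -2.81, adjusted p = 0.0648), with upper-quartile factors (-2.83, adjusted p = 0.0550) and without Exe BAT replicate 2 (-3.85, adjusted p = 0.0524) or replicate 3 (-3.59, adjusted p = 0.0540). For miR-223-5p, in the joint fit through Exe plasma, the value was -5.05 ± 1.27 (adjusted p = 0.00577). In Sed libraries the value of miR-150-5p was -0.26 ± 0.54 (adjusted p = 0.700) and that of miR-342-3p 2.09 ± 1.30 (adjusted p = 0.219). In total 5 of 9 members were called between sources in Exe and 2 of 9 in Sed, beside 66.7% and 42.3% of 234 tested miRNAs, so neither count exceeds the background. Of the 4 members past the filter in both tables, 3 were called in Exe and 1 in Sed. Among those called in Exe, miR-342-3p passed the plasma filter through Exe plasma, where it is high, so its call is a description. With library size alone the median of all miRNAs moved by 2.63 in the Sed comparison and 1.53 in the Exe comparison. The sign of miR-150-5p in Sed changed with it. With DESeq2, run without the filter, the median of all miRNAs moved by 0.64 in the Sed comparison and 2.57 in the Exe comparison.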

How the data were processed

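The members and lists were chosen with earlier results of these data known. Per the file headers, BAT and plasma each have 1 table, in which the authors give the count of reads of every mature miRNA by library. The BAT table, as deposited, also holds RPM (each equals the count over 1 total per library, within 0.01), and the plasma table a second whole number of unstated making. The submitters' processing notes name Bowtie 0.12.2 with mm8 and mm9; which program counted, against which miRBase release, is not stated in the sources used here.

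The deposited counts entered edgeR 4.0.16 (R 4.3.3) without change. Libraries were scaled by TMM and low miRNAs removed by filterByExpr. Quasi-likelihood tests, with robust fitting and no block, were adjusted by Benjamini-Hochberg over all tested miRNAs (threshold 0.05). DESeq2 1.42.0 and limma 3.58.1 (voom) served as alternatives, beside other scalings, filters and left-out libraries. SE is the log2 fold change over the square root of F. Within-library ratios used an exact permutation test (Python 3.11.15, scipy 1.17.1) with 1 added to each count. Floors are 3 counts. The fits were tested on simulated data. All 9 members were named, and other leukocyte miRNAs came from fixed lists, with values for those with a mean of at least 10 reads in a source and a fit there. Libraries of one group differed beyond sampling noise in each pair. The sequences come from RefSeq (GRCm38.p6). Figures were drawn with matplotlib 3.10.9.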

Additional observations from a re-analysis of the deposited data

Results flagged for a closer look

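A difference in the exercise effect between vesicle sources was called for 4 members in the joint edgeR fit (effect in BAT minus effect in plasma, log2). These were miR-342-3p (-6.12, effects of -0.06 in BAT and 6.85 in plasma in their own fits), miR-150-5p (-2.49, effects of 0.30 and 2.99), miR-223-5p (-5.68, not tested in BAT and 6.21 in plasma) and miR-146b-5p (-6.56, an effect of -0.15 in BAT and too few reads for the plasma filter). The last 2 passed the joint filter through the groups where they are high. For miR-342-3p, the plasma filter was passed through Exe plasma, where it is high. The share of miR-451a, a miRNA of red cells, in plasma reads, 11.1% and 13.1% in Exe and 69.8% and 52.8% in Sed, moved with the same groups, and its part in the result was not tested beyond leaving the red cell miRNAs out, where 4 members were called.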

How the results depend on the processing

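Members called in BAT (1) numbered 0 with the library totals implied by RPM, 0 with the replicate block, 2 with upper-quartile factors and 0 to 2 with a library left out; with a mean of at least 50 reads the 1 called was miR-223-3p, since miR-142a-3p was left out. The same-numbered BAT libraries did not deviate together (correlations of 0.004, -0.08 and -0.12), so the numbers are not taken as pairs, and the paired fit gave 25 calls over all miRNAs in BAT (45 without the block) and 7 in plasma (0 without it). In plasma (0) they numbered 2 with DESeq2, 1 with library size alone, 1 with limma-voom, 1 with a mean of at least 50 reads, 2 with no filter and 0 to 2 with a library left out. For the difference of effects (4) there were 1 with a spread for each source, 1 with a mean of at least 50 reads, 2 with upper-quartile factors and 0 to 5 with a library left out. Between Sed sources (2) there were 5 with DESeq2, 6 with library size alone, 1 with a mean of at least 50 reads and 2 to 5 with a library left out. Between Exe sources (5) there were 2 with a mean of at least 50 reads and 4 to 8 with a library left out.

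Signs that changed were those of values that were not called in the edgeR fits given above, though some of these values were called under an alternative. In BAT miR-342-3p was at 0.0053 with DESeq2, 0.080 with RPM totals, 0.10 with upper-quartile factors, and -0.31 to 0.19 with a library left out. In BAT miR-146b-5p was at 0.048 with RPM totals and -0.29 to 0.075 with a library left out, and the log2 ratio of miR-223-5p to miR-223-3p at -0.84 to 0.043. In plasma miR-146a-5p was at 0.33 with library size alone and -0.74 to 0.29 with a library left out. For the difference of effects, miR-146a-5p was at -0.87 with library size alone and -0.10 without red cell miRNAs, and miR-223-3p at 0.83 with upper-quartile factors. With a library left out these differences ranged from -12.8 to 1.05 for miR-223-3p, -2.78 to 5.08 for miR-142a-3p (lowest without Sed plasma replicate 2), -9.00 to 1.22 for miR-142a-5p (highest without Exe plasma replicate 2) and -8.17 to 3.64 for miR-155-5p (highest without Exe plasma replicate 1). Between Sed sources miR-150-5p was at 2.33 with library size alone, 0.045 with limma-voom, 0.024 when each source had its own spread, 0.39 with a mean of at least 50 reads, 0.0019 with no filter and -0.71 to 0.99 with a library left out. There miR-223-3p was at 0.52 with library size alone, 2.60 with limma-voom, 2.52 when each source had its own spread and -3.11 to 10.5 with a library left out, and miR-223-5p at -0.18 to 4.75. Between Exe sources miR-142a-5p was at 0.58 with limma-voom, 0.46 when each source had its own spread and -3.26 to 5.07 with a library left out, and miR-155-5p at 0.17 with library size alone, 1.66 with limma-voom, 1.70 when each source had its own spread, 0.15 with upper-quartile factors and -2.02 to 5.90 with a library left out. The causes were not tested. The other ratios kept their sign under each alternative, the 5p to 3p ratio of miR-142a ranging from 1.30 to 2.24 with a library left out. BAT depth limits miR-142a-5p, miR-155-5p and miR-223-5p, at 1 to 19 reads a library.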

Other observations

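Several leukocyte miRNAs had nearly all of their plasma reads in 1 library. In Exe plasma replicate 1 there were 241 reads of miR-155-5p, 193 of miR-150-3p, 145 of the macrophage miRNA miR-511-5p and 454 of miR-181c-5p, against 1, 0, 0 and 2 in Exe plasma replicate 2. In Exe plasma replicate 2 there were 583 reads of miR-142a-5p and 1002 of miR-212-3p, against 1 and 0 in Exe plasma replicate 1. The second plasma value was close to the reads for these, for example 580 beside 583 reads of miR-142a-5p and 239 beside 241 of miR-155-5p. In Sed plasma replicate 2 it was 3 beside 24 reads of miR-142a-3p. These miRNAs were picked after their values were seen, and no test was run.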
